A study of Mus musculus with 6 samples.

Results

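MiR-31 is a microRNA (miRNA), a short RNA that guides the silencing machinery to partly complementary messenger RNAs. The RNAs described here were both arms of the mouse miR-31 hairpin, mmu-miR-31-5p and mmu-miR-31-3p, taken by name from the array annotation, which gave 2 of the 566 mouse miRNAs and 4 of the 1712 miRNA probes on the array. They were measured in LLC1, an established line from a mouse Lewis lung carcinoma, grown for 48 h on plastic as a monolayer (2D) or embedded in Geltrex, a laminin rich extracellular matrix gel, at 0.5 mg/ml over agarose (lr-ECM 3D). Both groups were the same untreated line in serum-containing medium, and the culture format was the difference of interest. Plate type and seeding differed with it, cells being seeded per unit area in 2D and per well in lr-ECM 3D. Each condition had 3 independent replicates with 1 array each, and the cultures were set up from the tumour cell line alone, without added stroma, vessels or immune cells.

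A miRNA hairpin is cut into a duplex, and one arm, the guide, is kept in the silencing complex far more often than the other. The bases at the 5′ end of the guide, called the seed, choose the targets. MiR-31-5p is the usual guide of its hairpin. In breast cancer models miR-31 restrains invasion and metastasis, while in lung tumours it has been described as promoting growth.

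Whether each probe on the array binds its own arm alone was not examined. The sequences below differ between the arms, also in the seed. They are RefSeq sequences (GRCm38.p6), with the seed, bases 2 to 8, in capitals.
miR-31-5p: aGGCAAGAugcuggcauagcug
miR-31-3p: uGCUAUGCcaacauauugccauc
In the hairpin the mature arms stand in capitals, separated by a loop of 14 bases.
Mir31 hairpin: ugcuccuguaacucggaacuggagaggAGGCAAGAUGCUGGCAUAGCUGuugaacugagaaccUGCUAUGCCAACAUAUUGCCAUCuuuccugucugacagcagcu
The longest uninterrupted complementary run between the arms had 9 bases, from base 12 to base 20 of miR-31-5p. Neither seed was shared: among the mature mouse miRNAs of the RefSeq table, 1 name carried the seed of miR-31-5p and 1 that of miR-31-3p, in each case the arm itself.

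Mir31 lies on chromosome 4, at chr4:88910557-88910662 on the minus strand, with miR-31-5p at chr4:88910614-88910635 and miR-31-3p at chr4:88910577-88910599. It falls within the span of Gm49890, a long noncoding RNA gene at chr4:88909854-88942042. The nearest protein-coding genes were Ifne, an interferon gene 30.4 kb away on one side, and Mtap, a methylthioadenosine phosphorylase gene 226.7 kb away on the other. The nearest other miRNA gene, Mir491, was 788.4 kb away.

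The arrays differed in brightness. Averaged over miRNA probes, the unscaled signal was 5.03 to 40.4 linear units on the 2D arrays and 37.8 to 49.9 on the lr-ECM 3D arrays, and 2D replicate 2 was the dimmest array. It stood apart from the other 2D arrays, with correlations of 0.868 and 0.878 with them over the 120 tested miRNAs. Each condition had a slide and a scan day of its own, so that slide, scan day and culture condition cannot be told apart. As a check of the cell label, 0 of 6 epithelial miRNAs (the miR-200 family and miR-205) were well above background on any array. Of the blood cell miRNAs on the array, miR-223-3p, miR-150-5p and miR-451a were well above background on 0 arrays. MiR-142a-3p, another blood cell miRNA that the array lists under a later name than the marker list, was found after its values were seen: it was well above background on all 6 arrays, at log2 levels of 7.96 to 8.95 in 2D and 7.85 to 7.94 in lr-ECM 3D. Its partner arm miR-142a-5p, found in the same way, was also detected, on 1 array in 2D and 3 in lr-ECM 3D. Its log2 level was 4.39 to 4.78 in 2D and 4.49 to 4.57 in lr-ECM 3D. The part of either miR-142a arm in the miR-31 values was not tested.

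MiR-31-5p was far above the detection limit in both culture conditions, and miR-31-3p was above it on all arrays but 2D replicate 2, where it just reached it. Each arm has 2 probes with 10 spots each. The brighter probe of miR-31-5p, A_54_P1322, gave unscaled signals of 476, 94.6 and 877 linear units for 2D in replicate order. For lr-ECM 3D it gave 927, 735 and 684. The low value was that of the dimmest array, and every retained spot of this probe was well above background on every array. The SD between spots was 6.08% to 9.74% of the mean.

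The brighter probe of miR-31-3p, A_54_P3475, gave unscaled signals of 95.5, 30.4 and 213 linear units for 2D. For lr-ECM 3D it gave 208, 163 and 166. On 2D replicate 2 only 6 of 10 spots were well above background, with an SD between spots of 29.2% of the mean, against all retained spots and 3.75% to 9.34% on the other arrays. Its signal there was 1.04 times the lowest signal well above background on that array, against 3.21 to 9.40 times elsewhere. For miR-31-5p the corresponding values were 3.23 times on 2D replicate 2 and 16.0 to 42.0 times on the other arrays. The level of miR-31-3p on 2D replicate 2 was therefore at the limit of detection.

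**Figure D1:**
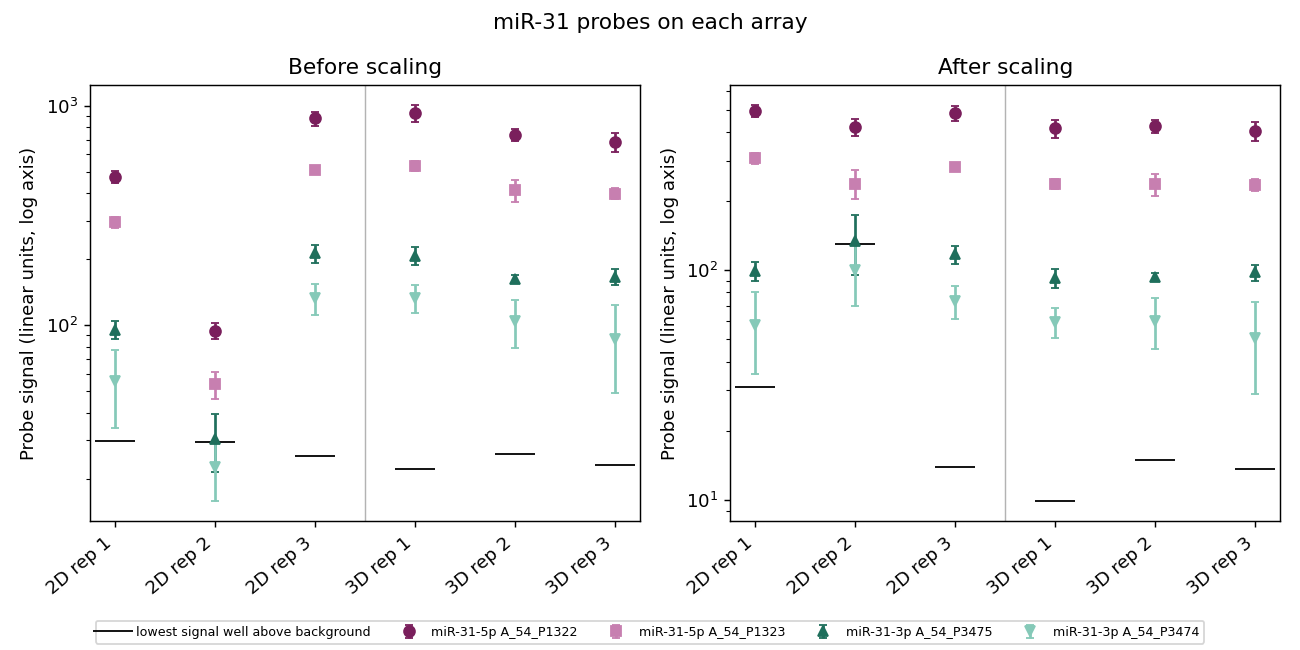
Signal of the 4 miR-31 probes on each array, in linear units on a log axis, before scaling (left) and after each array was scaled to the mean of the 2D arrays (right); points are means over spots, error bars are the SD between spots, and black dashes mark the lowest signal well above background on the array. Before scaling the brighter miR-31-5p probe ran from 94.6 to 927, and after scaling from 403 to 495, with both miR-31-3p probes close to the detection limit on 2D replicate 2.

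To put the arrays on one scale, every array was scaled linearly so that its average miRNA probe signal equalled the 2D average, and levels are given as log2 of the scaled signal. In 2D the log2 level of miR-31-5p was 8.95, 8.71 and 8.92, again in replicate order. In lr-ECM 3D it was 8.69, 8.72 and 8.65. The groups overlapped, since 2D replicate 2 lay below lr-ECM 3D replicate 2. The 2D mean of 8.86 ± 0.13 (SD, n = 3) compared with 8.69 ± 0.04 (SD, n = 3) for lr-ECM 3D, which is a change of -0.17 (SE 0.12). In limma, fitted over all 120 tested miRNAs, the adjusted p was 0.394 and the unadjusted p 0.217, so the change did not pass the test. The 95% interval of the fold, lr-ECM 3D over 2D, ran from 0.720 to 1.10 at this scaling, and a change of 2-fold lay outside it. The sign depended on the processing and was positive under 7 of 22 alternatives. The change was 0.15 with the 75th percentile over detected probes and with quantile normalization, and 1.19 without scaling. Alternatives that altered only the floor, the filter or the test model kept it at -0.17. The count of 22 therefore does not measure how often reprocessing the signal turned the sign.

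For miR-31-3p the log2 level was 6.63, 7.07 and 6.87 in 2D. In lr-ECM 3D it was 6.53, 6.55 and 6.61. At this scaling every 2D array lay above every lr-ECM 3D array, and the closest pair, 6.63 and 6.61, nearly met. Of all tested miRNAs 42.5% had groups that did not overlap, 22.5% with the 2D arrays higher, so that this pattern was common. The 2D mean of 6.86 ± 0.22 (SD, n = 3) compared with 6.57 ± 0.04 (SD, n = 3) for lr-ECM 3D, which is a change of -0.29 (SE 0.15). The adjusted p in limma was 0.276 and the unadjusted p 0.102, so this change did not pass either. The 95% interval of the fold was 0.630 to 1.06. Without 2D replicate 2, where this arm sat at the detection limit, the change was -0.19 (adjusted p = 0.274 by limma). The change was positive under 5 of 22 alternatives, among them 0.02 with the 75th percentile over detected probes and 1.06 without scaling. Again the alternatives that altered only the floor, the filter or the test model kept it at -0.29.

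Thus neither arm was called, where a call needed an adjusted p under 0.05 in limma and a fold of at least 2. Of the 120 tested miRNAs 14 were called (11.7%), 13 of them higher (10.8%) and 1 lower (0.833%) after matrix culture. The 13 called higher were well above background on no 2D array. They passed the filter only through lr-ECM 3D, the group in which they were high, so their calls are a description. Of all tested miRNAs 20.0% had separate groups with the lr-ECM 3D arrays higher. The methods' t-test gave miR-31-5p an adjusted p of 0.301 and miR-31-3p the same value, after Benjamini-Hochberg adjustment. A set of 48 miRNAs was well above background on all 6 arrays, and this set, to which both arms belonged, was the one with comparable detection. Their log2 changes ran from -0.86 to 0.11 with a median of -0.27, and 46 of the 48 lay below 0. MiR-31-5p was above that median, with 36 of the 48 changing further down, and miR-31-3p was near it, with 22 further down. Of the 48, 0 were called by limma when tested alone, while 7 had an unadjusted p below 0.05 and the methods' t-test called 0 after adjustment.

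**Figure D2:**
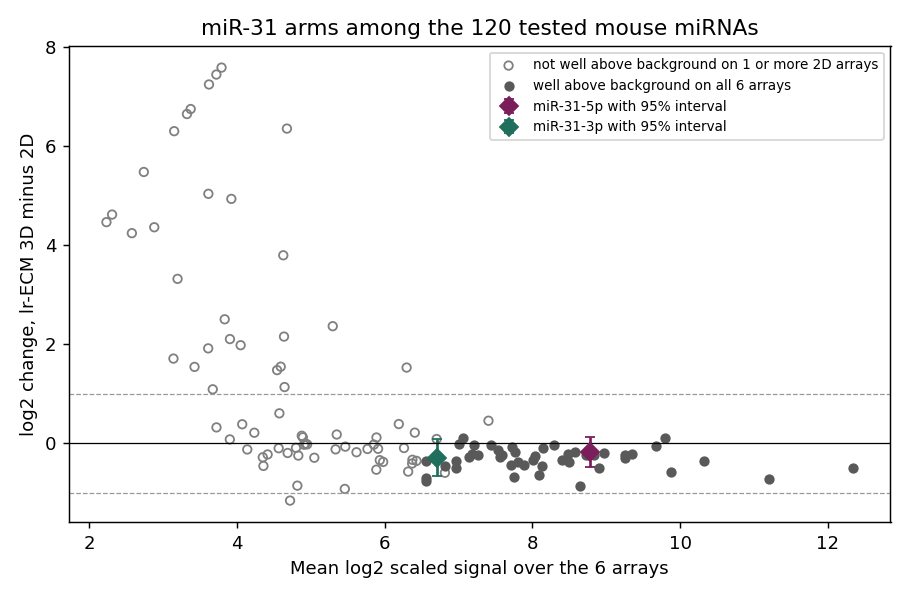
Change of the 120 tested mouse miRNAs (log2, lr-ECM 3D minus 2D) against their mean log2 scaled signal; filled circles are the 48 that passed background on every array, open circles the others, diamonds the miR-31 arms with 95% intervals from limma, and dashed lines a 2-fold change. At the reported scaling miR-31-5p at -0.17 and miR-31-3p at -0.29 lie within the band of filled circles, from -0.86 to 0.11, and the large rises are all open circles.

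The probes of an arm were compared with each other next, because they read the same RNA on separate spots. The second probe of miR-31-5p, A_54_P1323, changed by -0.21 and the first by -0.17 on the log2 scale. At this scaling the second probe was higher on every 2D array than on every lr-ECM 3D array. The closest pair nearly tied, at 7.896 on 2D replicate 2 and 7.894 on lr-ECM 3D replicate 1. Such separation with 2D higher was seen for 22.5% of all tested miRNAs. The difference between the miR-31-5p probes averaged 0.76 ± 0.06 (SD, n = 3) for 2D against 0.81 ± 0.03 (SD, n = 3) for lr-ECM 3D, with p = 0.5 in an exact two-sided permutation test over the 6 arrays. The second probe of miR-31-3p, A_54_P3474, changed by -0.41 against -0.29 for the first. It was the probe nearest to background, with 2 of 10 spots well above background on 2D replicate 2 and 8 of 10 on 2D replicate 1. The difference between the miR-31-3p probes averaged 0.63 ± 0.18 (SD, n = 3) for 2D against 0.74 ± 0.18 (SD, n = 3) for lr-ECM 3D, with an exact p = 0.6. Probes of an arm therefore changed by amounts whose difference was within the spread between arrays.

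The balance of the arms was compared between the culture conditions because a single factor applied to an array does not change it. The log2 signal of miR-31-5p minus that of miR-31-3p was 2.32, 1.64 and 2.04 in 2D. In lr-ECM 3D it was 2.16, 2.17 and 2.04. The arrays of the groups overlapped and the low value was that of 2D replicate 2. The average was 2.00 ± 0.34 (SD, n = 3) for 2D against 2.12 ± 0.07 (SD, n = 3) for lr-ECM 3D, so that they differed by 0.12 with p = 0.8 in the exact permutation test. With 3 arrays in each group that test cannot give a p below 0.1. Without 2D replicate 2 the difference was -0.06. Methods that do more than multiply an array moved it further: it was 0.64 with quantile normalization, with an exact permutation p of 0.1, and 0.38 with normexp background correction, with an exact p of 0.3. Different probes bind with different strength, so the size of this value is not a ratio of molecules, and only its change between arrays can be read.

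Both arms were seldom seen together on these arrays. Of 147 hairpins with both arms on the array by name, 2 (1.36%) had both arms well above background on all 6 arrays, miR-31 and miR-199a. Counting arms that could be tested, 7 hairpins had both by names ending in -5p and -3p. Names without such an ending, as miR-17_v17.0 beside the tested miR-17-3p, were not paired. The change of the 5p arm minus that of the 3p arm was 0.12 for miR-31 and 0.13 for miR-199a, whose arms changed by -0.38 and -0.51. In the other 5 hairpins at least 1 arm was not well above background on every array, and for miR-574 and miR-30b the 3p arm was so on 0 of the 2D arrays, so that no such value is set beside that of miR-31.

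The rank of each arm by probe signal among the 566 mouse miRNAs was then examined on each array, as a measure that also needs no scaling. Ranks order the brightness of probes and not numbers of molecules. MiR-31-5p ranked 10, 21 and 13 in 2D, and 11, 13 and 13 in lr-ECM 3D. The lr-ECM 3D ranks fell inside the range of the 2D ranks. The mean rank was 14.7 ± 5.69 (SD, n = 3) for 2D against 12.3 ± 1.15 (SD, n = 3) for lr-ECM 3D, with an exact p = 0.9, and without 2D replicate 2 the difference changed from -2.33 to 0.83 ranks.

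MiR-31-3p ranked 50, 48 and 47 in 2D, while its ranks in lr-ECM 3D were 55, 55 and 53. These ranks did not overlap and had an exact permutation p of 0.1, the smallest possible, which became 0.7 after Benjamini-Hochberg adjustment over the 7 exact tests of this kind. More miRNAs were well above background on the lr-ECM 3D arrays, 120 to 151 against 48 to 101 on the 2D arrays. On 2D replicate 2, where 48 miRNAs were detected, miR-31-3p held rank 48. Among only the 48 miRNAs that passed background on every array it ranked 46, 48 and 44 in 2D and 44, 45 and 45 in lr-ECM 3D, and there the groups overlapped. MiR-31-5p kept its ranks of 10 to 21 in that smaller set.

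**Figure D3:**
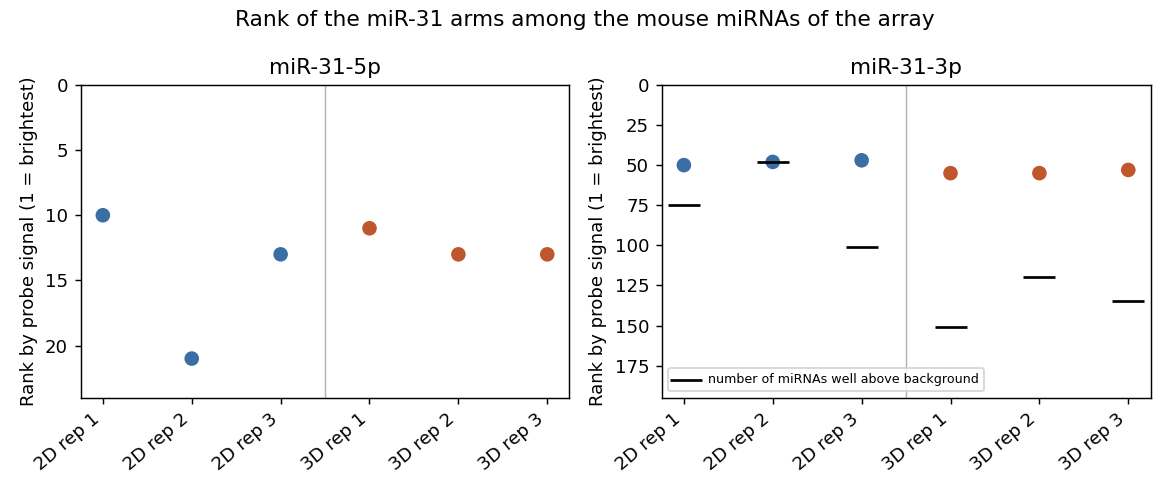
Rank of miR-31-5p (left) and miR-31-3p (right) by probe signal among 566 mouse miRNAs on each array, where 1 is the brightest; blue points are 2D arrays, orange points lr-ECM 3D arrays, and black dashes in the right panel the number of miRNAs well above background on the array. MiR-31-5p ranked 10 to 21, and miR-31-3p ranked 47 to 50 in 2D and 53 to 55 in lr-ECM 3D, at the number of detected miRNAs on 2D replicate 2.

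A further value free of the array scale is the level relative to the median log2 level of the same 48 miRNAs. For miR-31-5p it was 1.01, 0.24 and 0.93 in 2D, and 1.02, 0.86 and 0.81 in lr-ECM 3D. The value of 2D replicate 2 was the low one, and the other arrays lay close together. The average was 0.72 ± 0.42 (SD, n = 3) for 2D against 0.90 ± 0.11 (SD, n = 3) for lr-ECM 3D, with an exact p = 0.8. For miR-31-3p it was -1.31, -1.40 and -1.12 in 2D, and -1.14, -1.31 and -1.23 in lr-ECM 3D, so that the groups overlapped. Here the average was -1.27 ± 0.14 (SD, n = 3) for 2D against -1.22 ± 0.09 (SD, n = 3) for lr-ECM 3D, with an exact p = 0.7.

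The miRNAs with the steadiest difference from miR-31-5p were found among the other 47 miRNAs well above background on all arrays. The measure was the SD, over the 6 arrays, of their log2 level minus that of miR-31-5p. A small SD also arises where both levels vary little, so it does not show that they moved together. Within 2D, miR-31-5p was lowest on replicate 2, at 8.71. There miR-18a-5p (7.34), miR-93-5p (7.85) and miR-19b-3p (9.57) were at their highest. The smallest SD was that of miR-16-5p, at 0.09, followed by miR-29b-3p at 0.10, miR-93-5p at 0.15, miR-18a-5p at 0.16 and miR-19b-3p at 0.17. MiR-16 is known to restrain cell cycle genes, miR-29b to repress collagen and other matrix genes, and the last 3 belong to the miR-17 to miR-92 group of growth-promoting miRNAs and its relatives. At the reported scaling their changes ran from -0.21 for miR-19b-3p to -0.03 for miR-18a-5p in log2, with adjusted p of 0.333 to 0.844 by limma. MiR-31-3p, the partner arm, came 14th of 47 with an SD of 0.23. This order rested on the dimmest array: without 2D replicate 2 the 5 miRNAs took places 6 to 27. Their RefSeq sequences are shown, with the seed in capitals, because they let the seeds be set against those of miR-31 given above.
miR-16-5p: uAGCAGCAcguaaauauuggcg
miR-29b-3p: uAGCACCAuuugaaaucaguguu
miR-93-5p: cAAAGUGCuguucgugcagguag
miR-18a-5p: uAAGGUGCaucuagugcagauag
miR-19b-3p: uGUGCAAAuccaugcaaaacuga
None of these 5 miRNAs had the seed of either miR-31 arm, and their genes lie on chromosomes 1, 3, 5, 6, 14 and X in the RefSeq table, none on chromosome 4.

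**Figure D4:**
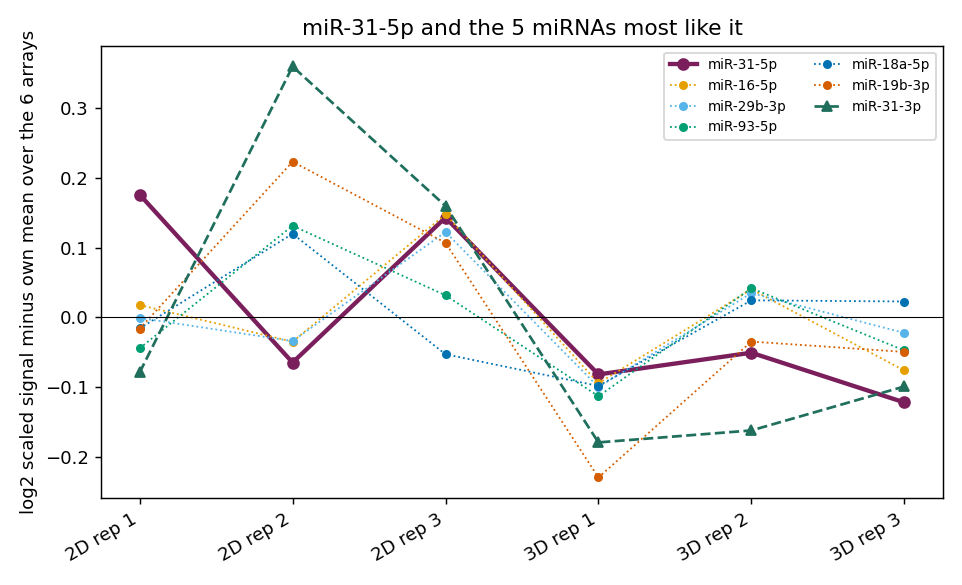
Log2 scaled signal minus its own mean over the 6 arrays for miR-31-5p (thick line), the 5 miRNAs with the smallest SD of difference from it (dotted lines) and miR-31-3p (dashed line); lines join arrays to guide the eye and replicates have no order. MiR-31-5p and miR-16-5p, with an SD of difference of 0.09, run together on 2D replicates 2 and 3, while miR-31-3p peaks on 2D replicate 2, where it sat at the detection limit.

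MiR-31 was set beside other miRNAs that have been linked to metastasis. Of 9 on a list reported to promote invasion or metastasis, all on the array, 7 could be tested. Limma called 0 of them, where 11.7% of all tested miRNAs were called. An unadjusted p below 0.05 was seen for 1, miR-182-5p, which no 2D array showed well above background and which passed the filter only through lr-ECM 3D, and the methods' t-test called 0 after adjustment. Their median log2 change was 0.15, against -0.11 over all 120 tested miRNAs. Of the 7, only 2 were well above background on all arrays, and the others passed the filter only through lr-ECM 3D. The median was the value of miR-96-5p, which was among those others, so it supports nothing about the list. The most intense were miR-21a-5p, a widely raised tumour miRNA, with a change of -0.71 and an adjusted p of 0.254, and miR-103-3p, which lowers Dicer, with 0.11 and an adjusted p of 0.585, both in limma. MiR-107-3p, of the same seed group as miR-103-3p, changed by 0.22 and miR-10b-5p by -0.11, with adjusted p of 0.349 and 0.806 in limma.

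Of 13 on a list reported to restrain metastasis, 3 were tested and 1 was called, miR-335-5p, against 11.7% of all tested miRNAs. It passed the filter only through lr-ECM 3D, the group in which it was high, so its call is a description and supports nothing about the list. Of the others, 9 were well above background on 0 arrays, among them all 5 of the miR-200 family, miR-34a-5p and miR-126a-3p. The log2 level of miR-335-5p was 0, 0 and 1.37 in 2D, where it was never well above background, and 4.88, 4.40 and 4.80 in lr-ECM 3D (adjusted p = 0.000887 by limma). Since the lr-ECM 3D level lay below the mean detection limit of the 2D arrays, no fold is given for it. The let-7 miRNAs, which repress growth genes such as Ras and are well known in lung cancer, were well above background on all arrays: let-7a-5p changed by -0.23 and let-7g-5p by -0.26, with adjusted p of 0.517 and 0.353 in limma.

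The choice of processing set the sign of both miR-31 changes, and it moved the other miRNAs as well. Besides the scaling, normexp background correction turned both changes positive, and the total gene signal turned that of miR-31-5p. Over the tested miRNAs the median change was -0.11 as reported (log2), 0.21 when scaled to the 75th percentile of detected probes, 0.76 with the deposited values and 1.24 without scaling. Measured against that median, the change of miR-31-5p was -0.06 as reported, without scaling and with the 75th percentile over detected probes, and -0.09 with the deposited values. One factor per array shifts every change alike, so these values could hardly differ, and their closeness is not a result. The distance of miR-31-5p was 0.23 with quantile normalization, 0.24 with normexp background correction and -0.64 with the total gene signal. The change of miR-31-3p stayed below the median under all 22 alternatives, by 0.02 to 0.79, with -0.18 as reported. Alternatives that only multiply an array or alter the test model could hardly move this distance to the median. That median counts miRNAs that passed the filter only through lr-ECM 3D, some of them far higher there. Over the 48 well above background on all 6 arrays it was -0.27, and miR-31-3p lay 0.02 below it. Relative to the median level of those 48, miR-31-3p changed by 0.05 (p = 0.7 in the exact permutation test), so the shared sign does not show a decrease. Neither arm was called under any alternative.

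**Figure D5:**
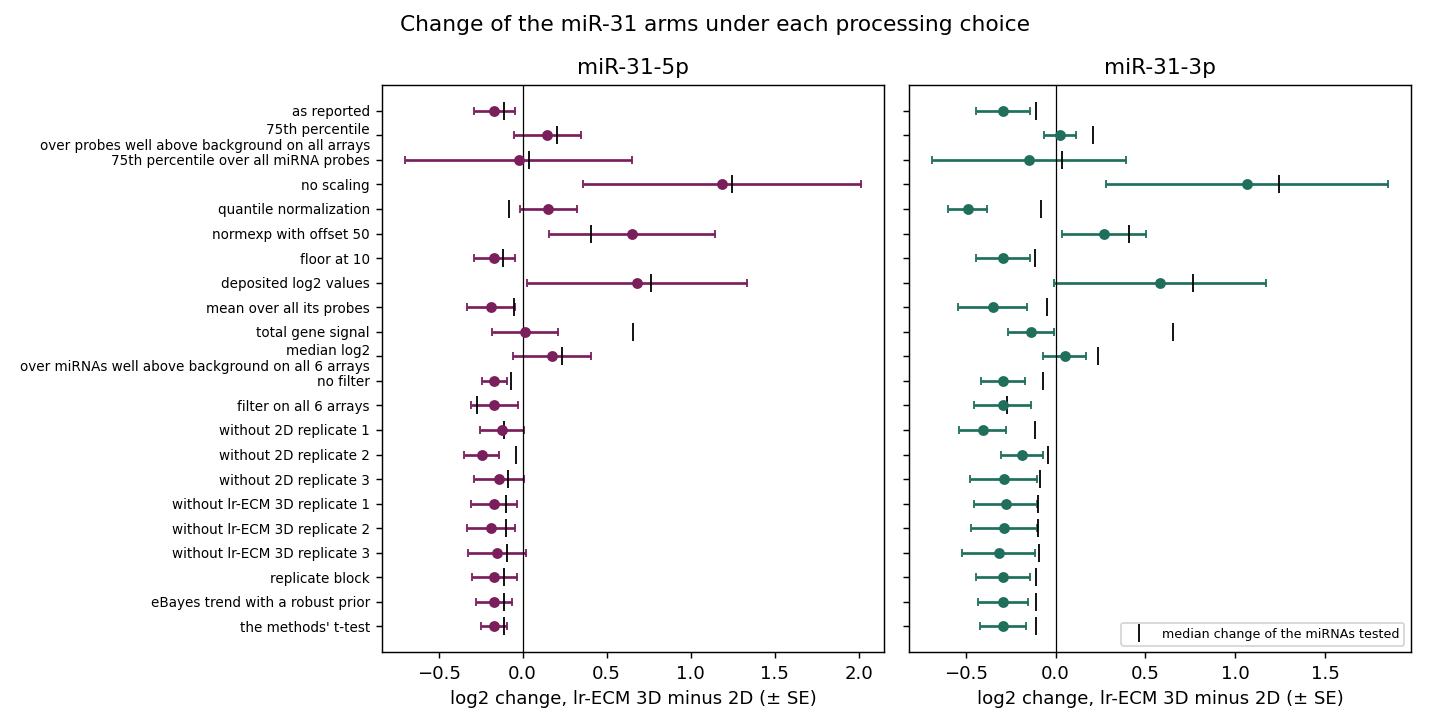
Log2 change, lr-ECM 3D minus 2D, of miR-31-5p (left) and miR-31-3p (right) as reported and under each alternative; points are the fitted changes, bars their SE, and black ticks the median change of the miRNAs tested at that setting. The changes run from -0.24 to 1.19 for miR-31-5p and from -0.49 to 1.06 for miR-31-3p, and the highest values come without scaling, where the median is 1.24.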

How the data were processed

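For each array the authors labelled 100 ng of total RNA with Cy3, hybridised it to an Agilent mouse miRNA 8x15K array and extracted spot intensity on a linear scale with Feature Extraction 10.7.3.1, which subtracts background and detrends. The deposited scanner files also hold other columns, among them flags, median spot and background intensities and a total gene signal. A deposited table for the whole series has log2 values that the authors computed, equal to log2 of the spot intensity floored at 1 plus a constant per array (largest departure 0.049, found from the values).

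Control and outlier spots (190 to 369 per array) were left out, spots averaged per probe, arrays multiplied by factors of 0.447 to 4.43 (mean over miRNA probes set to that of the 2D arrays, after the methods), floored at 1 and converted to log2. A miRNA was represented by its brightest probe, and was well above background if 50% or more of its spots had that flag. Testing used limma 3.58.1 (lmFit and eBayes, two-sided) under R 4.3.3 with Benjamini-Hochberg adjustment, on mouse miRNAs that passed background on every array of at least 1 group. Calls needed adjusted p under 0.05 and a fold of at least 2. Single values were compared with exact two-sided permutation tests.

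The members, the metastasis and marker lists and the tests were chosen with earlier results of these data known. Named miRNAs were both arms, the 5 closest to miR-31-5p, list members that were called or were the brightest (up to 4 per list), and hairpins with both arms tested. Alternatives covered scaling, background correction, probe summary, floor, filter, test, single arrays left out and the replicate number as a block; scaling to the median of miRNAs well above background on all 6 arrays, and likeness without 2D replicate 2, were added after seeing the data. Of the 566 mouse miRNAs 466 (82.3%) had a mature sequence by that name in the RefSeq table. The number of arrays limits precision. Probe sequences were not used here.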

Additional observations from a re-analysis of the deposited data

How the results depend on the processing

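Slide and scan day could not be separated from culture condition, and 2D replicate 2 limits the 2D group. The cause of a change listed here was not tested. The miR-31-5p change turned positive under 7 of 22 alternatives: 0.15 with the 75th percentile over detected probes, 1.19 without scaling, 0.15 with quantile normalization, 0.65 with normexp, 0.68 with the deposited values, 0.014 with the total gene signal and 0.17 with the median of miRNAs well above background on all 6 arrays. MiR-31-3p turned positive under 5: 0.024, 1.06, 0.27, 0.58 and 0.051 with the 75th percentile over detected probes, no scaling, normexp, deposited values and that median. Alternatives of floor, filter and test model kept both changes as reported, so these counts do not measure how often reprocessing the signal turned the sign. Neither arm was called under any alternative; with quantile normalization miR-31-3p had an adjusted p of 0.0248 in limma but a change of -0.49, under 2-fold. With each array left out the changes were -0.24 to -0.12 for miR-31-5p and -0.41 to -0.19 for miR-31-3p, the arm difference (0.12 as reported) -0.057 (without 2D replicate 2) to 0.28, and the rank difference of miR-31-5p -4.67 to 0.83 (without 2D replicate 2). The arm difference was 0.64 with quantile normalization (exact permutation p of 0.1) and 0.38 with normexp (exact p of 0.3), and 0.098 to 0.16 under the other alternatives that kept all arrays.

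The number of calls among tested miRNAs, 14 as reported, was 25 with the 75th percentile over all probes, 27 without scaling, 24 with quantile normalization (19 higher and 5 lower, against 13 and 1 as reported), 27 with the deposited values, 26 with the total gene signal, 32 without a filter, and 0 with a filter on all 6 arrays (7 at an unadjusted p under 0.05 in limma, 0 by the methods' t-test). With each array left out it was 12 to 31, the highest without 2D replicate 2. With the replicate number as a block 12 were called, and the changes of -0.17 and -0.29 had adjusted p of 0.432 and 0.319 in limma. Same-numbered arrays had correlations of their deviations of 0.22, -0.16 and 0.14 over 48 miRNAs, and not every array correlated best with its own number. With so few arrays these weak values cannot tell whether same-numbered cultures were handled together, and the labels do not say.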
